A study of Homo sapiens with 17 samples.

Results

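The sites described here are positions of engaged RNA polymerase that lay just past the ends of protein-coding genes, the region in which transcription by polymerase II terminates. They were chosen by position: a listed site had to lie 1 to 5000 bp downstream of the annotated end of a protein-coding gene of GENCODE release 29 on GRCh38, on the gene's strand, on chromosomes 1 to 22, and outside every annotated gene on that strand. Over the 4 deposited tables, 22682 of 158141 distinct positions met this rule. No measured time entered the choice.

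The times came from TV-PRO-seq (time-variant precision run-on sequencing) of HEK293, an established cell line of human embryonic kidney origin. Permeabilised cells were allowed to extend nascent RNA for 0.5, 2, 8 or 32 min before the RNA ends were sequenced, in the usual run-on buffer with the detergent sarkosyl or in that buffer without it. Each buffer was run in replicates 1 and 2 at each time. Each of the 4 tables holds 1 fitted pausing time per site for a buffer and replicate over the run-on times. Both statements are read from the table and sample names. The samples of the buffers are numbered in 2 separate blocks. A difference between buffers thus cannot be told apart from one between these blocks of libraries. The cells were untreated, all groups share the same line, growth and run-on temperature, and 1 further sample, labelled Trp treatment, was not analysed here. The series text calls the replicates biological duplicates, the only statement on how they were made, and it also names KBM7 cells, which are not among the samples analysed here.

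At the end of a gene, polymerase II transcribes the polyadenylation signal, the RNA is cleaved a short distance behind that signal, and the polymerase continues into the DNA beyond. The exonuclease XRN2 then degrades the uncapped RNA left behind by cleavage, and slowing of the polymerase in this stretch is thought to help XRN2 catch it and release it from the template. Replication-dependent histone genes use another route: their RNA is cut after a stem-loop and is not polyadenylated.

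The sequences at which genes end are shown for genes whose sites are described below, since many genes end shortly after a polyadenylation signal. Each is the last 30 bases of an annotated GENCODE transcript that ends at the gene end, on the gene's strand, with a polyadenylation hexamer (AATAAA, or ATTAAA) in capitals where these 30 bases held one.
EGR1, chr5:138469286-138469315, plus strand: taaaacgaaAATAAAgtagctgcgattggg
JUN, chr1:58780788-58780817, minus strand: gtcacAATAAAtgtattcaaataccaataa
SOX4, chr6:21598590-21598619, plus strand: aAATAAAatcagctggaactgaaccctaaa
RPL10A, chr6:35470756-35470785, plus strand: atttgAATAAAttctattaccagttccctc
RPS12, chr6:132817535-132817564, plus strand: agaaatgaagaAATAAAtctttggctcaca
HNRNPU, chr1:244840638-244840667, minus strand: atAATAAAgcaagaattatttactctcgga
RNF141, chr11:10511678-10511707, minus strand: gggaagttgagtttATTAAAaggtagtctg
HIST1H1E, chr6:26157078-26157107, plus strand: gcccaacacaacccaaaggctcttttcaga
HIST1H2BK, chr6:27146418-27146447, minus strand: gccgtcaccaagtacaccagcgctaagtaa
The hexamer was followed by 15 bases in EGR1 and by 10 in RNF141, and neither histone end held one. In the last 50 bases of the gene, AATAAA was present in 57.9% of all 19019 autosomal protein-coding genes. It was present in 60.8% and 60.2% of the genes with sites in the zone in sarkosyl replicates 1 and 2, and in 62.2% and 61.9% in the sarkosyl-free replicates. Among the 71 replication-dependent histone genes the share was 23.9%, and 35 of those 71 annotated ends coincided with a stop codon, so distance past a histone gene often counts from the end of the coding sequence.

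The base at the listed site itself separated the tables. GENCODE exons or RefSeq promoters (GRCh38.p14) on either strand gave a 29-base window, 14 bases to each side, for 1067, 1122, 1251 and 896 zone sites in sarkosyl replicates 1 and 2 and sarkosyl-free replicates 1 and 2, which is 13.4% to 16.7% of the zone sites. Zone sites lie outside genes on their own strand, so exon windows came from genes on the opposite strand. Sites with a window are thus not a random draw from the zone. With sarkosyl, the listed base on the RNA's strand was C at 85.1% and 79.7% of the zone sites with a window. Without sarkosyl it was C at 53.8% in replicate 1 and 21.0% in replicate 2, where G held 45.2% and 78.7%. A or T held 0.335% to 3.65% in the 4 tables. Positions were read as counted from 1 because that put C or G at nearly all listed bases. The low share of A or T is thus no separate result. In the share of C, sarkosyl-free replicate 1 lay closer to either sarkosyl table than to its own replicate. The same was seen outside the zone, where C held 73.4%, 71.9%, 50.7% and 22.6% of the other autosomal sites with a window.

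Examples are shown for zone sites listed in all 4 tables, with the listed base in capitals. They are the sites with a window whose log2 difference between buffers was largest in each direction, and they were chosen after their values were seen. The first set had longer times with sarkosyl.
PSMD7, chr16:74306430-74306458, plus strand: aaacaggcagtctgCtgtagtgaggagag
MED31, chr17:6640919-6640947, minus strand: cgggagcctctgacGaccacaatccatcc
RNF10, chr12:120581376-120581404, plus strand: ctctccggtccggcGtgcaaaccggatgt
The second set had shorter times with sarkosyl.
DEK, chr6:18223373-18223401, minus strand: tttgagatatacagCtgttggcttgtttt
ILF2, chr1:153661623-153661651, minus strand: atgtaaccaggcatGtaacatacaaagga
FUCA2, chr6:143490702-143490730, minus strand: tgcaaatgtcaggcCatattcggtctatc
The site 156 bp past PSMD7, a proteasome subunit gene, had times of 7.94 and 6.21 in the sarkosyl tables but 0.442 and 0.744 in the sarkosyl-free tables. The site 481 bp past DEK, which encodes a chromatin protein, had 1.08 and 1.13 in the sarkosyl tables but 8.00 and 13.2 in the others. The groups did not overlap at either site, and both sites had C.

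Among zone sites with a window, those with C had shorter median times than those with G in every table. With sarkosyl the median time at C was 1.66 (replicate 1) and 1.41 (replicate 2), and at G it was 2.62 and 1.62. Without sarkosyl it was 2.28 and 4.44 at C, and 3.34 and 9.62 at G. The difference in median log2 time, C minus G, was -0.43 ± 0.32 (SD, n = 2 tables) with sarkosyl and -0.83 ± 0.40 (SD, n = 2) without it. The direction was the same at sites inside coding gene bodies, where the means were -0.38 ± 0.36 and -1.02 ± 0.44. The bases of neighbouring listed sites are not independent, and the tables share no stated depth, so these are descriptions.

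The tables differed in size and in their typical time, so times are given as deposited, in a unit that is not stated, and comparisons between distances are made within a table. Values listed in fours are in the order sarkosyl replicates 1 and 2, then sarkosyl-free replicates 1 and 2. The zone held 6401 of 45938 and 6978 of 44976 autosomal sites in the sarkosyl replicates, and 8480 of 62065 and 6683 of 38853 in the sarkosyl-free replicates. The tables give no read numbers, so the depth behind a site is unknown. Of the markers used to check the cell line, KRT8, KRT18, VIM and NEFL had listed sites in all 4 tables and PAX2 and NEFM in none. Of 6 haematopoietic markers, PTPRC and LCP1 had 1 site each in 1 table, and SPI1, CD33, HBG1 and HBG2 had none. A count of listed sites is no expression level.

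Sites past gene ends made up a similar share of each table. The share was 13.9% (95% exact Clopper-Pearson interval 13.6 to 14.3) and 15.5% (15.2 to 15.9) with sarkosyl, and 13.7% (13.4 to 13.9) and 17.2% (16.8 to 17.6) without it, where the intervals cover counting error of listed sites only. The means were 14.7% ± 1.12 and 15.4% ± 2.50 (SD, n = 2), and the difference of -0.707 percentage points was smaller than the spread between replicates (two-sided exact permutation test, p = 1). With 2 tables against 2, that test cannot give a p below 0.333. The sites fell past 2423, 2718, 3311 and 2860 genes. Of the 5032 genes with a site in any table, 1135 had sites in all 4.

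Sites were most frequent in the first kilobase past the end and thinned out with distance. The densest bin was the one over 500 and up to 1000 bp in every table, with 136 and 157 sites per Mb of eligible bases (bases past gene ends outside annotated genes on that strand) with sarkosyl, and 179 and 146 without it. In the last kilobase of the zone the density was 29.3, 33.8, 41.7 and 28.7 sites per Mb. The median distance was 1486 and 1508.5 bp with sarkosyl and 1484 and 1445 bp without it. Sites of genes with AATAAA in their last 50 bases lay closer to the end than those of genes with neither hexamer, with medians of 1356, 1374, 1400 and 1350 bp against 1800, 1808, 1734 and 1689 bp.

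**Figure D1:**
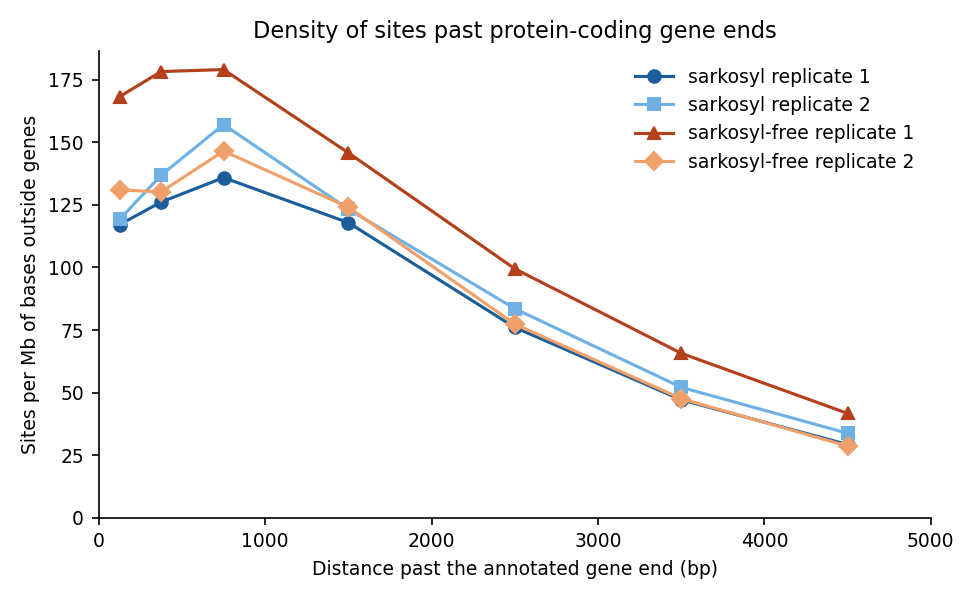
Sites per Mb of eligible bases (vertical axis) against distance past the annotated gene end in bp (horizontal axis, points at bin centres), 1 line per table. All 4 lines peak in the bin from 500 to 1000 bp, at 136 to 179 sites per Mb, and fall to between 28.7 and 41.7 in the last bin.

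Some zone sites also lay close to other annotated features. Between 28.0% and 30.7% of them were inside a gene on the opposite strand. Between 12.8% and 14.8% had the start of the next gene on the same strand within 2000 bp downstream. Between 1.65% and 3.25% were within 1000 bp upstream of a coding start on the opposite strand, and that share was higher in the last bin of the zone, at 10.8% and 8.76% with sarkosyl and 4.68% and 5.16% without it.

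Times in the zone were longer than at the remaining autosomal sites in all 4 tables, by a small amount. The median zone times of the sarkosyl replicates were 1.81 and 1.45, and those of the sarkosyl-free replicates were 2.85 and 8.70, against 1.47, 1.34, 2.13 and 8.06 at all other autosomal sites. On the log2 scale the difference was 0.30, 0.11, 0.42 and 0.11. Among sites with a quartile ratio (upper over lower quartile of the fitted rate) below their table's median, it was 0.07, 0.04, 0.11 and -0.13, so the direction turned in sarkosyl-free replicate 2. The means were 0.21 ± 0.14 with sarkosyl and 0.26 ± 0.22 without it (SD, n = 2), and they differed by -0.06 (two-sided exact permutation test, p = 1). Within a table the interquartile range of log2 time in the zone was 2.05, 1.19, 3.21 and 2.69, several times that difference. The absolute median log2 time was 0.70 ± 0.23 with sarkosyl and 2.32 ± 1.1 without it (p = 0.333 by the same exact test, the smallest possible). The sarkosyl-free tables lay farther apart from each other than sarkosyl-free replicate 1 lay from sarkosyl replicate 1.

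Against sites inside gene bodies the difference disappeared on average. Gene-body sites were defined as sites inside a protein-coding gene and over 1000 bp from a coding start, and their median times were 1.75, 1.51, 2.51 and 10.0. Zone minus body was 0.05 and -0.06 in the sarkosyl tables, 0.18 and -0.20 in the others. The same was seen within genes that had at least 2 sites in each place, numbering 574, 663, 1064 and 719 in the 4 tables. The median over these genes of zone minus body was 0.01 and -0.07 in the sarkosyl tables, 0.10 and -0.21 in the others, with means of -0.03 ± 0.06 and -0.06 ± 0.22 (SD, n = 2). In both buffers the spread between replicates exceeded the mean. Of 257 such genes present in all 4 tables, 16 had the longer time past the end in every table and 19 the shorter. Across genes with at least 3 sites in each place, Spearman's rho between the median zone and body times was 0.06, -0.02, 0.07 and -0.01 (335, 365, 576 and 378 genes, which share a table and its depth).

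By distance within the zone, the median log2 time changed by less than the interquartile range of any bin. In sarkosyl replicate 1 the median time was 1.71 in the first 250 bp, reached 1.96 in the third kilobase and was 1.68 in the last kilobase. In sarkosyl replicate 2 it stayed between 1.39 and 1.46 in all 7 bins. In sarkosyl-free replicate 1 it was 3.02 in the first 250 bp, 3.09 in the third kilobase and 2.30 in the last kilobase. In sarkosyl-free replicate 2 it was highest from 500 to 1000 bp, at 9.52, and 8.03 in the last kilobase. Beyond the zone, from 5000 to 10000 bp, the medians were 1.53 and 1.47 in the sarkosyl tables, 2.00 and 7.19 in the others. From 10000 to 20000 bp all 4 were lower still, at 1.31, 1.29, 1.42 and 5.65. In those outermost bins 36.6%, 32.4%, 21.7% and 23.8% of sites lay within 1000 bp upstream of an opposite-strand coding start, a share whose part in the lower medians was not tested.

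At the annotated end itself, the last 250 bp of the gene had longer median times than the first 250 bp past it in each table. In the sarkosyl replicates the time went from 1.93 before the end to 1.71 after it, and from 1.54 to 1.39. In the sarkosyl-free replicates it went from 3.41 to 3.02 and from 9.35 to 9.13. These bins were chosen after their values were seen, and each step was small beside the interquartile range of either bin. Sites before the end were kept only if over 1000 bp from a coding start, a limit not set past the end. The bins also need not hold the same genes.

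**Figure D2:**
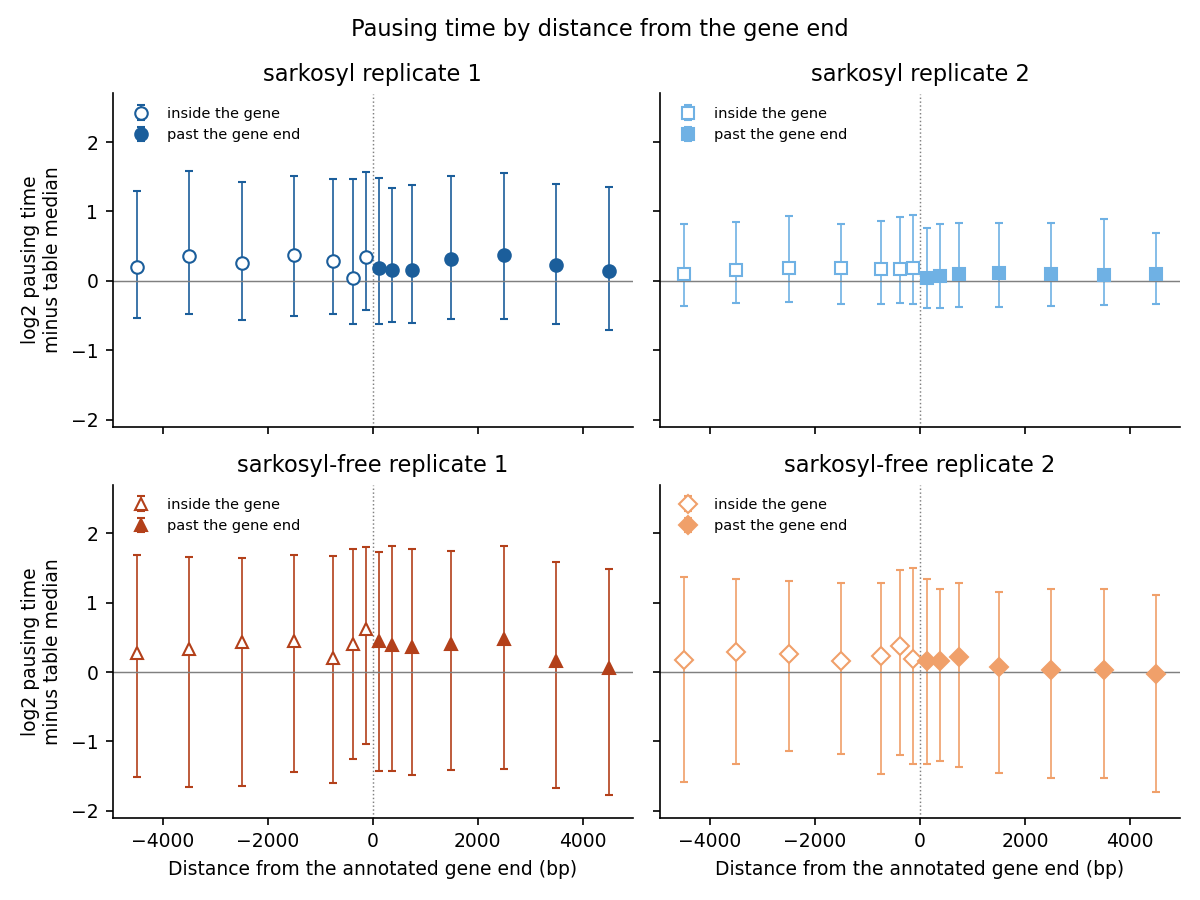
Median log2 pausing time minus the median of its table (vertical axis) against distance from the annotated gene end in bp (horizontal axis, negative inside the gene), 1 panel per table. Open symbols are sites inside the gene and over 1000 bp from a coding start. Filled symbols are sites past the end, without that limit, and bars span the lower to the upper quartile. The medians move by less than 0.6 while the bars span over 1 log2 unit.

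Sites 1 to 1000 bp past the end were compared with sites over 2000 and up to 5000 bp past it, to ask whether time depends on distance within the zone. With sarkosyl the near sites had the shorter median times, 1.69 against 1.84 in replicate 1 and 1.43 against 1.45 in replicate 2. Without sarkosyl they had the longer ones, 2.90 against 2.71 in replicate 1 and 9.35 against 8.30 in replicate 2. On the log2 scale, near minus far was -0.12 and -0.03 in the sarkosyl tables, 0.10 and 0.17 in the others, with means of -0.07 ± 0.07 and 0.13 ± 0.05 (SD, n = 2). The groups did not overlap, and the difference between buffers of -0.21 gave p = 0.333 by the two-sided exact permutation test, the smallest that 4 tables allow. Within genes with at least 2 sites at both distances, the median difference was -0.28 and -0.00 with sarkosyl (98 and 109 genes) and 0.22 and 0.41 without it (153 and 86 genes). When only sites whose listed base was C were kept, the sarkosyl-free mean turned to -0.14 and the buffers no longer separated. This alternative was chosen after seeing the data and draws only on zone sites with a window, 13.4% to 16.7% of them. By table the values with C were -0.08, -0.13, 0.10 and -0.39. The negative sarkosyl-free mean came from replicate 2, which had 188 zone sites with C. With G, the values were -0.18, 0.30, 0.29 and 0.10. When only sites with a quartile ratio below their table's median were kept, near minus far was 0.01, -0.02, -0.01 and 0.03 in the 4 tables. The signs then no longer separated the buffers, and the difference between buffers was -0.02 (exact permutation test, p = 0.667).

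A few genes held many of the sites. Between 1231 and 1653 genes per table had 1 zone site, and 82 to 111 had 10 or more. EGR1, an immediate early transcription factor gene, had the most with sarkosyl: 48 and 46 sites between 33 and 3256 bp past its end, with median times of 1.59 and 1.93. Without sarkosyl only 2 and 3 sites were listed past EGR1. Their times were 1.76 and 1.77 in replicate 1, and 9.17, 38.5 and 23.3 in replicate 2. Its gene body likewise held 35 and 35 sites in the sarkosyl tables, 7 and 11 in the others. EGR1 was named for its number of zone sites, so these counts are a description. Near the end of EGR1 the sarkosyl medians were below those over 2000 bp out: 1.29 against 2.03 in replicate 1, where 27 and 8 sites were listed.

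JUN, another immediate early transcription factor gene, differed less in number, with 27 and 29 sites with sarkosyl and 16 and 17 without it. The median times past JUN were 3.52, 1.61, 7.31 and 6.37. JUN also held the longest zone time of sarkosyl replicate 1, 166.7 at 1362 bp, where the fitted rate was 0.006 with quartiles of 0.004 and 0.01. Rates are rounded to 3 decimals, so times of this length take few distinct values. Of 5 sites past JUN listed in all 4 tables, the site at 660 bp had 0.724 and 0.801 in the sarkosyl tables but 5.46 and 13.7 in the others. The site at 2143 bp went the other way, with 10.2 and 3.01 against 0.592 and 2.02. At 852 and 677 bp both sarkosyl times were below both others, and at 510 bp the groups overlapped. Sites past JUN thus had both orders of the buffers. After each table was centred on its median, both orders were common among all sites listed in the 4 tables. Both sarkosyl times lay below both sarkosyl-free times at 25.7% of them and above at 31.6%.

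SOX4, a developmental transcription factor gene, had 21, 20, 34 and 27 sites spread from 61 to 4879 bp, with median times of 3.10, 1.66, 3.96 and 7.46. At 2549 bp past SOX4 the times were 11.9 and 20.4 in the sarkosyl tables but 1.73 and 4.48 in the others. HNRNPU, which encodes a nuclear RNA-binding protein, had 23, 23, 38 and 26 sites, and most lay far from the end, with median distances of 4143, 3252, 3859 and 3377 bp. The median times past HNRNPU were 2.14, 1.58, 5.34 and 6.87, against 2.65, 1.78, 6.41 and 11.5 inside its body. All 4 HNRNPU zone medians lay below its own body medians. TPT1, which encodes an abundant translation-associated protein, went the other way in 3 of 4 tables, with 4.64, 3.88, 3.77 and 5.37 past the end and 2.66, 1.40, 3.65 and 7.19 in the body.

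RNF141, a ring finger gene, had 40, 40, 31 and 24 sites and none in its own body in any table. They all lay between 1482 and 2471 bp past its end, and the next gene on that strand, MTRNR2L8, starts at 2489 bp. MTRNR2L8 is a nuclear copy of mitochondrial ribosomal RNA sequence. Reads of near-identical copies may be shared, how the authors placed such reads is not given in the sources used here, and the values past RNF141 are uncertain for that reason. Their medians of 1.05, 1.08, 2.01 and 1.17 were below the zone median of each table. The longest zone time of sarkosyl-free replicate 2, 500.0 at a rate of 0.002, was also past RNF141. C19orf48 resembled RNF141 in number, with 32, 37, 21 and 20 sites, but 13, 10, 7 and 5 sites were inside its body.

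**Figure D3:**
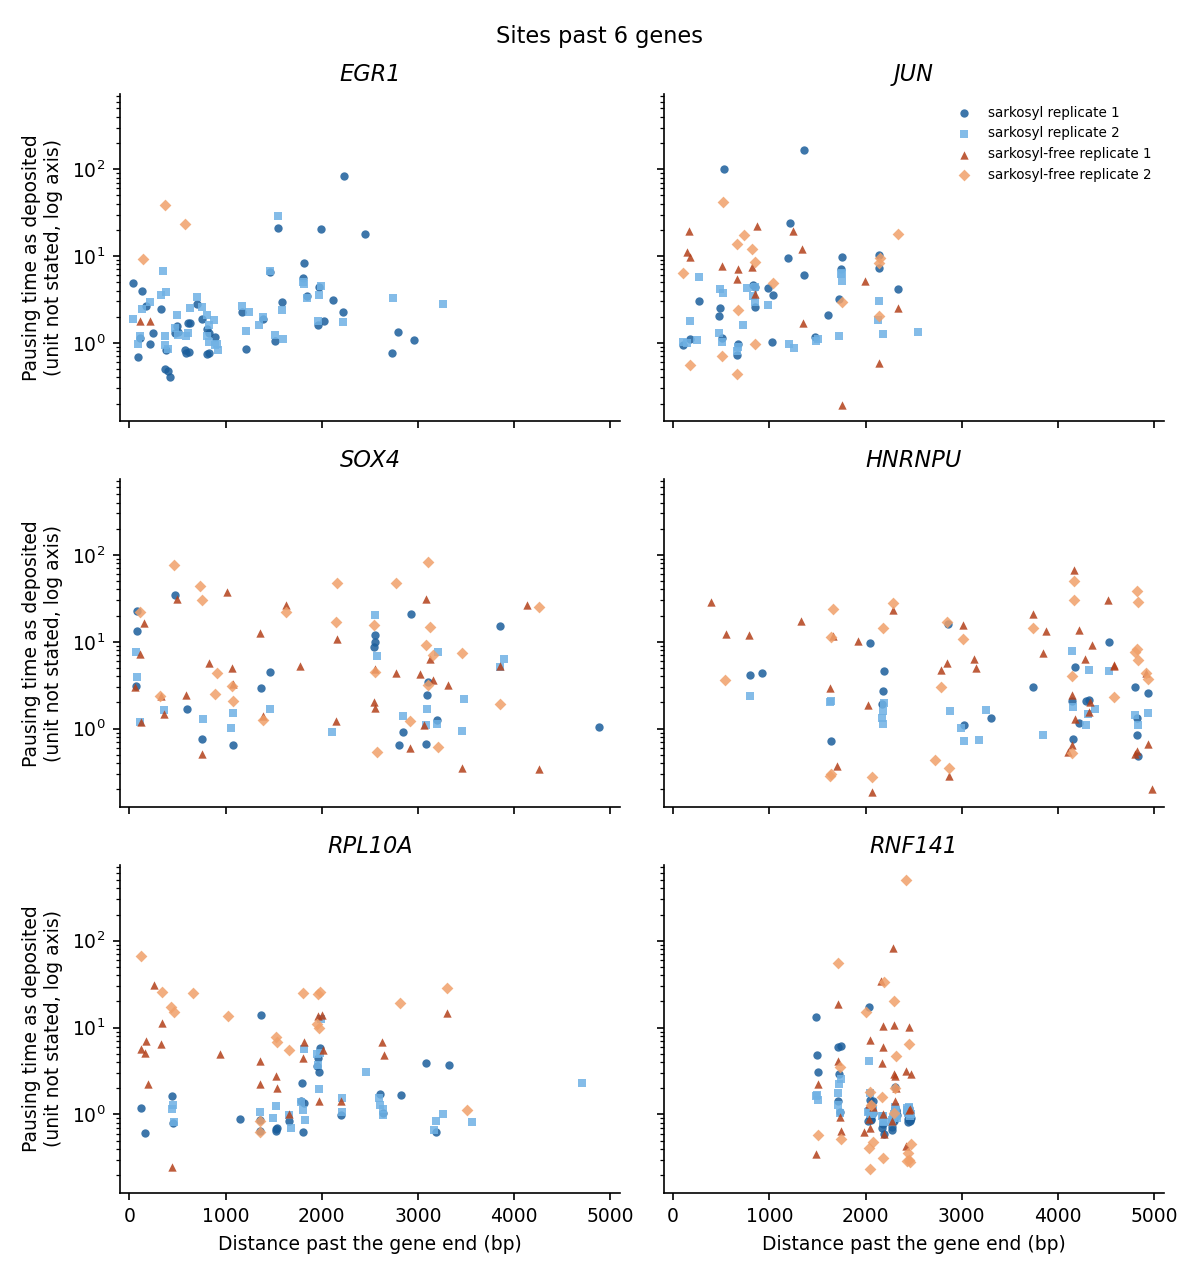
Pausing time as deposited (vertical log axis, unit not stated) of every zone site of EGR1, JUN, SOX4, HNRNPU, RPL10A and RNF141 against distance past the gene end in bp (horizontal axis), with colour and symbol for the table. EGR1 has 48 and 46 points with sarkosyl and 2 and 3 without it, and all points of RNF141 lie between 1482 and 2471 bp.

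Further extremes fell past other genes. The longest zone time of sarkosyl replicate 2 was 76.9, at 909 bp past ZNF226, a zinc finger gene. The shortest time of sarkosyl replicate 1 was 0.405, past EGR1. In sarkosyl replicate 2 the shortest time, 0.628, was shared by a site past RACK1 and a site past RPL12. WDR88 held the shortest time of both sarkosyl-free tables, 0.167 at 1325 bp and 0.145 at 1321 bp. Only 3, 3, 4 and 3 sites lay past WDR88, with medians of 0.598, 0.702, 0.288 and 0.240, all below the zone median of their table. The next gene, LRP3, starts 1808 bp past the end of WDR88.

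Replication-dependent histone genes, whose RNA ends at a stem-loop, had sites closest to the gene end among the 5 lists examined. Sites were present past 23, 23, 20 and 11 of 71 genes, or 32.4%, 32.4%, 28.2% and 15.5%. Of all autosomal protein-coding genes, 12.7%, 14.3%, 17.4% and 15.0% had them, close to the histone share in sarkosyl-free replicate 2. The median distances were 375 and 365.5 bp with sarkosyl and 221 and 195 bp without it. Within 1000 bp lay 73.1% to 100% of these sites, against 33.7% to 34.8% of all zone sites, with the higher shares (89.8% and 100%) without sarkosyl. Only 23.8% of the eligible bases past these genes lay that close. Median times of the histone sites were below the zone median in every table, over 76, 108, 59 and 27 sites. On the log2 scale the differences were -0.08 and -0.35 in the sarkosyl tables, -0.99 and -2.22 in the others. HIST1H1E, which encodes a linker histone, had 7, 16, 12 and 9 sites, and none lay beyond 796 bp. Its median times were 1.16, 1.05, 3.15 and 16.4, so HIST1H1E was above the zone median in the sarkosyl-free tables while the list was below it. HIST1H2BK had 5, 7, 8 and 5 sites with medians of 3.29, 1.25, 4.59 and 0.758. Past HIST1H1C, also a linker histone gene, 5, 9, 4 and 1 sites had medians of 1.79, 1.12, 1.07 and 0.645. The next gene on its strand starts 1039 bp past HIST1H1E but over 12 kb past the other 2 genes, at 13668 and 12130 bp.

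Cytosolic ribosomal protein genes, which are transcribed strongly in growing cells, often had zone sites. These were found past 57, 58, 60 and 59 of 82 genes, or 69.5% to 73.2%, against 12.7% to 17.4% of all autosomal protein-coding genes. They contributed 523, 553, 527 and 444 sites at median distances of 1115, 1144, 1056 and 1070 bp. Their median time relative to the zone median was 0.11, -0.18, 0.56 and 0.07, so the sarkosyl tables did not share a direction. RPS12 had 19, 24, 36 and 25 sites with median times of 1.60, 1.24, 5.24 and 10.1. RPL10A had 27, 29, 24 and 19 sites with 1.19, 1.17, 5.01 and 15.2, below the zone median with sarkosyl and above it without. RPL13A had 19, 27, 22 and 18 sites with 2.39, 1.63, 6.39 and 16.3, above the zone median in all 4 tables.

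Heat shock genes had zone sites past 6, 7, 8 and 6 of 14 genes, or 42.9% to 57.1%, against 12.7% to 17.4% of all autosomal protein-coding genes. Their median time relative to the zone was -0.05, 0.07, 0.28 and -0.45. HSPA8, a constitutive chaperone gene, had 13, 12, 16 and 14 sites with medians of 2.72, 1.24, 6.15 and 5.24. HSP90AA1 had 10, 12, 8 and 9 sites with 1.33, 1.53, 5.24 and 8.47, and HSP90AB1 had 7, 9, 7 and 7 with 1.88, 2.21, 2.52 and 6.41. Genes of the cleavage, polyadenylation and termination machinery itself had sites past 9, 12, 14 and 8 of 32 genes, at 1.04, -0.20, 0.89 and -0.08 relative to the zone median, over only 25, 27, 53 and 26 sites. Past PPP1CC, a catalytic subunit gene of protein phosphatase 1, the medians of 7, 6, 13 and 9 sites were 1.61, 1.26, 9.71 and 23.8. CPSF6, which encodes a subunit of cleavage factor I, had 3, 4, 11 and 6 sites with medians of 8.62, 1.504, 4.07 and 7.27. PABPN1, the nuclear poly(A) binding protein gene, had 5, 8, 3 and 3 sites with 6.21, 1.31, 11.0 and 5.95. Replicates with sarkosyl differed by more than 4-fold for CPSF6 and PABPN1, whose medians rest on few sites.

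Actin, tubulin and vimentin genes had zone sites past 5, 6, 6 and 6 of 9 genes, or 55.6% to 66.7%. Among all autosomal protein-coding genes the share was 12.7% to 17.4%. Within 1000 bp lay 48.0%, 53.5%, 59.0% and 61.9% of the sites past the actin, tubulin and vimentin genes. The median time of this list relative to the zone was -0.03, -0.15, 0.47 and 0.10. ACTB had 14, 21, 12 and 3 sites with medians of 2.45, 1.40, 4.45 and 4.22. ACTG1 had 17, 20, 8 and 5 sites with 1.17, 1.15, 6.26 and 18.2, and TUBA1B had 7, 15, 6 and 5 with 1.46, 1.17, 5.17 and 9.35. For ACTG1 and TUBA1B the sarkosyl tables were below their zone medians and the sarkosyl-free tables above.

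**Figure D4:**
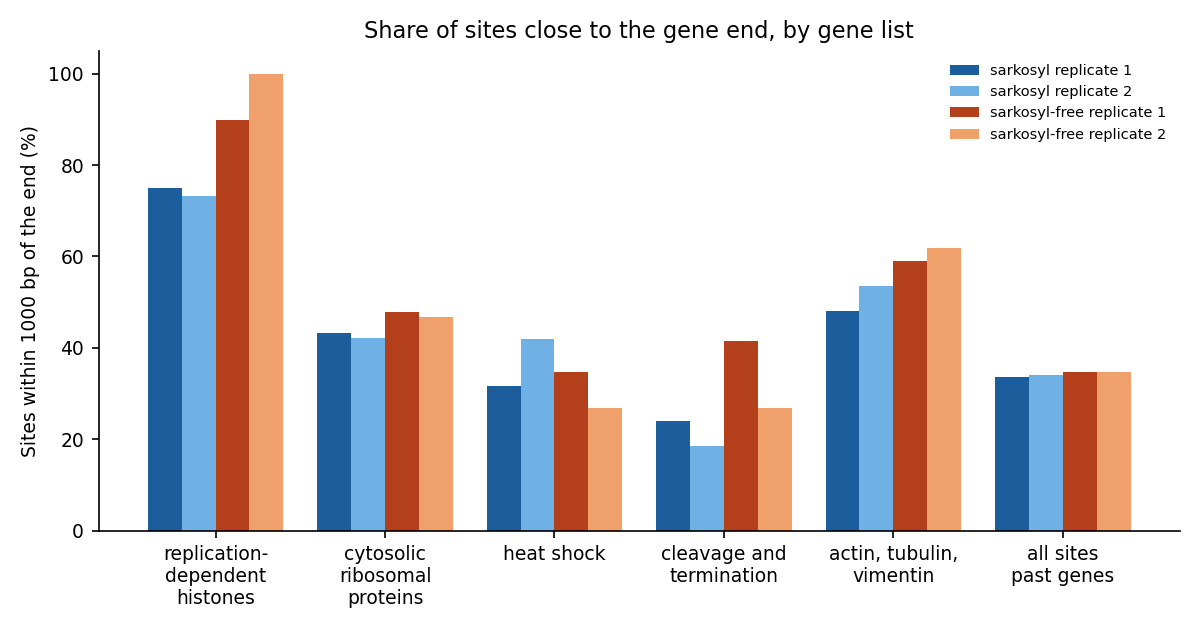
Percentage of sites within 1000 bp of the gene end (vertical axis, from 0) for each gene list and for all zone sites (horizontal axis), 1 bar per table. Histone genes reach 73.1% to 100%, whereas all zone sites together lie between 33.7% and 34.8%.

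The same site was listed again more often by a replicate of the same buffer than across buffers. The sarkosyl tables shared 2291 zone sites, 35.8% and 32.8% of each, and the sarkosyl-free tables shared 1927, or 22.7% and 28.8%. Pairs across buffers shared 642 to 923 sites, 8.18% to 14.4% of a table's zone sites. The same order held outside the zone. There the shares were 35.9% and 37.4% with sarkosyl, 20.0% and 33.3% without it, and 9.58% to 19.2% across buffers. Over shared zone sites, Spearman's rho of time was 0.616 between the sarkosyl replicates and 0.401 between the sarkosyl-free replicates, and between -0.02 and 0.15 for the 4 pairs across buffers. At the other autosomal sites the replicate values were 0.694 and 0.478. Gene medians gave lower coefficients: over genes with at least 5 zone sites in both tables, rho was 0.195 (258 genes) and 0.117 (250 genes). These medians take in every zone site of a gene in a table, shared or not. They thus rest on other sites than the coefficients over shared sites. These coefficients are across sites or genes of tables that may share depth and base composition, and they are descriptions.

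Single zone sites were compared between buffers at the 253 sites past 192 genes that all 4 tables listed. Their median times were 1.62, 1.75, 2.19 and 1.89, against 1.81, 1.45, 2.85 and 8.70 for all zone sites. The comparison thus covers these sites and not the zone as a whole, above all in sarkosyl-free replicate 2. The fit used limma on log2 times over all 2967 shared sites, with each table centred on its median and Benjamini-Hochberg adjustment over the 2967. Unlike the other comparisons, this set of shared sites was not limited to chromosomes 1 to 22. No zone site passed an adjusted p of 0.05 (0 of 253), and 0% of all shared sites did. The smallest adjusted p of a zone site was 0.155. At an unadjusted p below 0.05 there were 55 zone sites (21.7%), against 23.2% of all shared sites. The median log2 difference was -0.02 for the 253 zone sites and 0.22 for all shared sites. After centring, both sarkosyl times lay below both sarkosyl-free times at 70 zone sites (27.7%, against 25.7% of all) and above them at 66 (26.1%, against 31.6%). The zone shares were thus close to those of all shared sites.

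The count of sites past the adjusted threshold depended on the table left out. It was 127 without sarkosyl-free replicate 1 and 58 without sarkosyl-free replicate 2, fits in which the lone sarkosyl-free table is assumed to vary like the sarkosyl tables. The 3 zone sites with the smallest unadjusted p are described next. That choice picks sites that are alike within buffers and far apart between them. At 1090 bp past PHLDA3, a gene induced by p53, position 201463293 on the minus strand of chromosome 1 had 5.21 and 4.90 in the sarkosyl tables but 0.228 and 0.230 in the others. The log2 difference was 4.60 (SE 0.71, unadjusted p = 7.3e-04, adjusted p = 0.155, limma). Another site past PHLDA3, at 624 bp, had 2.71 and 3.497 against 0.615 and 0.298, while the site at 108 bp had 0.887 and 1.60 against 3.65 and 4.50. At 2629 bp past B3GALT6, which encodes a galactosyltransferase, position 1237670 on the plus strand of chromosome 1 had 3.73 and 3.57 against 0.244 and 0.255, a difference of 4.01. At 190 bp past SCD, the stearoyl-CoA desaturase gene, position 100365024 on the plus strand of chromosome 10 had 0.653 and 1.12 against 13.5 and 13.9, a difference of -3.87.

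**Figure D5:**
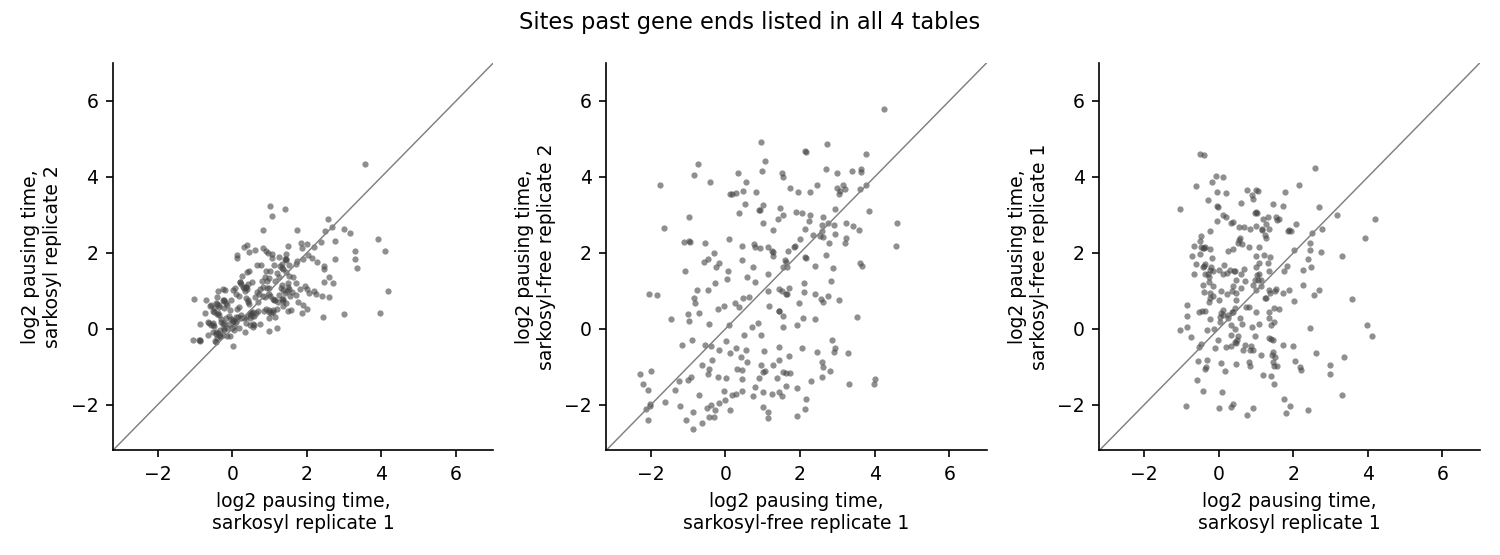
Log2 pausing time of the 253 zone sites listed in all 4 tables, for the sarkosyl replicates (left), the sarkosyl-free replicates (middle) and the first replicates of both buffers (right), with the line of equal times. Points follow the line most closely between the sarkosyl replicates and show no trend across buffers.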

How the data were processed

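TV-PRO-seq libraries of HEK293 cells (2 buffers, 2 replicates, 4 run-on times, 16 libraries) were deposited as 4 tables. Per the submitters' processing notes, cutadapt 1.14, HISAT2 2.1.0, SAMtools and bedtools were used with build hg38. The model, its prior, the rule for listing sites and the read depth are not given in the sources used here. Per the file headers, the deposited tables give the quartiles and median of a fitted rate, treated here as a score, and a pausing time that equalled 1 divided by the deposited median in every row. Rates are rounded to 3 decimals.

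Sites were annotated with GENCODE release 29. Positions were taken as counted from 1, because the listed base was nearly always C or G under that reading. Eligible bases exclude annotated genes on the strand. Times were analysed as log2 values with Python 3.11.15, numpy 2.4.6, pandas 2.3.3 and scipy 1.17.1, and plotted with matplotlib 3.10.9. Levels were compared over tables by two-sided exact permutation tests, and single sites by limma 3.58.1 in R 4.3.3 with a threshold of 0.05. That fit was also run on simulated sites with known changes. How many of those changes it recovered is not given here. No genome was used here, so windows of 25 bases to each side, as planned, became 14, taken from GENCODE transcripts and RefSeq promoters, and 6911 windows found in both sources were identical.

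Named genes were those with the most zone sites and a site shared by all 4 tables (12 genes), those with the most zone sites (6), the 3 sites with the smallest p, the untied extremes of each table, and up to 3 genes per list. JMJD4, PSG4 and EEF1A1 also met the rule. The longest time of sarkosyl-free replicate 1 is not reported here. The members, lists and rules were chosen with earlier results of these data known. The alternatives covered summaries, zone widths, neighbouring genes, certainty, clustering, centring, a replicate block and leaving out tables. Those by base and without the densest genes were added after seeing the data. The differences between replicates were correlated across buffers, which cannot tell whether same-numbered replicates were prepared together.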

Additional observations from a re-analysis of the deposited data

Results flagged for a closer look

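Near minus far, the log2 difference between sites 1 to 1000 bp and sites over 2000 and up to 5000 bp past the gene end, had opposite signs in the buffers. It was -0.1196 and -0.02701 in sarkosyl replicates 1 and 2, and 0.09702 and 0.1714 in sarkosyl-free replicates 1 and 2. The difference between buffers was tested by exact permutation of the 4 tables and gave p = 0.333, the smallest value possible. Among sites with a quartile ratio below their table's median, near minus far was 0.005308, -0.02375, -0.01484 and 0.02647 in the same order, so the signs no longer separated the buffers, and the difference was -0.01504 (exact permutation test, p = 0.667). The sarkosyl-free tables also held more G at the listed base (45.2% and 78.7% of zone sites with a window, against 13.6% and 16.7%), and the part of this in the difference was tested only by restricting the base, as given below.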

How the results depend on the processing

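The zone level against other sites was above 0 in all 4 tables under 14 of 16 settings, and near minus far kept opposite signs in the buffers under 10 of 14. Restricting to sites with a quartile ratio below the table's median moved the level from 0.21 to 0.05539 with sarkosyl and from 0.26 to -0.01159 without it, their difference to 0.06698, near minus far to -0.00922 with sarkosyl and 0.005816 without it (buffer difference -0.01504), and zone minus body of the same gene to 0.01215 and 0.02993. Against gene-body sites the level was -0.00569 and -0.008358, differing by 0.002669. With sites in both tables of a buffer, the level without sarkosyl was 0.5842, the level difference -0.289 and near minus far with sarkosyl -0.004565. With G at the site, the level with sarkosyl was 0.5472 (difference 0.4188), and near minus far 0.05855 and 0.1946. With C, near minus far without sarkosyl was -0.141 (0.1048 in replicate 1 and -0.3868 in replicate 2), and the buffer difference 0.03208. Without the 100 genes with most sites, near minus far without sarkosyl was 0.07518 and the level difference 0.004671. Near minus far without sarkosyl was 0.1891 without sites inside opposite-strand genes and 0.2255 in a zone of 10000 bp. One value per gene gave a level difference of 0.1309, and at least 4 sites in each place gave a zone minus body of 0.03215 without sarkosyl. The cause was not tested for any of these. Leaving out tables, zone minus body ranged from -0.06815 to 0.0137 with sarkosyl and from -0.2123 to 0.09859 without it. The level difference ranged from -0.2143 to 0.09819 (0.03804 without sarkosyl replicate 2, 0.09819 without sarkosyl-free replicate 1), and the limma count from 0 to 127. The limma count was 8 after quantile normalization. It was 12 with a replicate block. Across shared sites of the centred tables, the replicate 1 minus replicate 2 differences of the buffers had a correlation of 0.0134. Centring removes any shift of a whole table, so this does not show whether same-numbered replicates were prepared together. The adjusted p of the PHLDA3 site ranged from 0.00587 to 0.981 over its alternatives. Of 106 alternatives to 11 results, not counting tables left out, 14 reversed direction. Depth is unknown, and 2 tables per buffer limit every comparison.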

Other observations

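Past EEF1A1, a translation elongation factor gene, 19, 30, 28 and 17 sites in sarkosyl replicates 1 and 2 and sarkosyl-free replicates 1 and 2 had median times of 1.49, 1.21, 5.94 and 8.62, at median distances of 753, 888.5, 1017 and 1019 bp. Past PSG4, a pregnancy-specific glycoprotein gene, 22, 16, 35 and 7 sites had medians of 1.64, 1.41, 2.75 and 1.71, below the gene-body medians of 5.75, 2.24, 4.54 and 12.1 in each table. Past JMJD4, which encodes a hydroxylase, 12, 16, 27 and 20 sites had medians of 1.98, 1.20, 3.76 and 8.60.

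The bases next to the zone sites were uneven as well. G stood 3 bases before the listed base at 60.0% and 49.6% of zone sites with a window in the sarkosyl tables, and at 45.5% and 44.8% in the others. The base just before the listed one was C at 69.4% and 63.1% of zone sites in the sarkosyl tables, 27.1% and 21.7% in the others. At the other autosomal sites of the sarkosyl tables it was C at 58.2% and 54.5%.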
